A study of Homo sapiens with 16 samples.

Results

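The results below describe how the response to olaparib differed between 2 ovarian carcinoma cell lines, UWB1.289, which carries a BRCA1 mutation, and OVCAR3, which is BRCA1 wild-type. Olaparib blocks PARP enzymes, which help to repair DNA strand breaks. UWB1.289 cells received 3.5 µM olaparib or its solvent DMSO, OVCAR3 cells received 7.5 µM or DMSO, and RNA was taken after 96 h in 4 replicates of each of the 4 groups. The measure is the change with olaparib in UWB1.289 minus the change with olaparib in OVCAR3, on the log2 scale, fitted over all 16 of the 16 libraries. A positive value means that the log2 change was higher in UWB1.289, and a negative value that it was higher in OVCAR3. Each genotype is represented by 1 line, the doses were set for each line separately, and the media differed. UWB1.289 was kept in MEGM Bullet Kit medium mixed with RPMI and 3% serum, and OVCAR3 in RPMI with 20% serum and added insulin. BRCA1 status, line, dose and medium therefore cannot be told apart, and neither can a change per cell and a change in the share of cells that express a gene.

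Reads came from the 3' ends of polyadenylated RNA, and total counts ranged from 5599571 to 7730228 per library. In a principal component analysis the lines lay apart on the leading axis (84.5% of the variance) and the treatments on the next (4.39%). The third held 1.88%, and on it olaparib moved the libraries of the lines in opposite directions. OVCAR3 olaparib replicate 4 stood furthest from its group, with a chi-square per gene of 7.69 to 11.8 against its fellow replicates, where the other pairs within groups gave 2.89 to 7.66. All 10 markers of ovarian carcinoma epithelium passed the count filter. Their summed level was 8047 to 8617 CPM (counts scaled to library size) in UWB1.289 with DMSO and 6518 to 7837 with olaparib, and 5018 to 5295 and 3199 to 3588 in OVCAR3. The 10 leukocyte markers summed to 8.28 to 12 CPM in UWB1.289 with DMSO, 16.9 to 22.4 with olaparib, and 2.04 to 4.08 over the 8 OVCAR3 libraries. Between 4 and 5 of them were at 0 in each group, and their part in the results was not tested.

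Several systems recur among the genes described here. Type I interferons act through the receptor chains IFNAR1 and IFNAR2 and on to transcription factors that bind the interferon-stimulated response element (ISRE) and switch on antiviral genes. Cytosolic DNA sensed by cGAS and STING, or RNA sensed by RIG-I-like receptors, can start that programme, and the same sensors feed the NF-kB factors that drive inflammatory chemokines. The ERK kinases, downstream of growth factor receptors, induce their own inhibitors, the DUSP phosphatases and SPRY proteins, so the RNA of these genes is widely read as a sign of ERK output.

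A gene was called when edgeR's quasi-likelihood test gave a Benjamini-Hochberg adjusted p below 0.1, the log2 difference was beyond 1 in either direction and the average normalized count over the 16 libraries was above 10. Of 14243 genes tested, 521 (3.66%) were called. The response was higher in UWB1.289 for 285 of them (2.0% of those tested) and higher in OVCAR3 for 236 (1.66%). A further condition, that every difference between an olaparib and a DMSO library of one line lay outside the range of the other line, was met by 737 tested genes (5.17%) and by 264 of the 521. The median log2 difference over all tested genes was 0.01.

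The 2 directions differed in make-up. Among the 285 genes with the higher response in UWB1.289, the median log2 change was 0.76 in UWB1.289 and -0.77 in OVCAR3. Among the 236 with the higher response in OVCAR3, it was -0.0044 in UWB1.289 and 1.46 in OVCAR3. When the change in each line was tested in the same fit, 283 called genes passed the adjusted p in OVCAR3 alone and 89 in UWB1.289 alone. Another 47 changed in the same direction with the larger change in OVCAR3, and 22 with the larger change in UWB1.289. Changes in opposite directions, with both lines past the threshold, were found for 63 genes (0.442% of those tested), of which 42 rose in UWB1.289 and fell in OVCAR3 and 21 did the reverse. The remaining 17 passed the threshold in neither line.

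**Figure D1:**
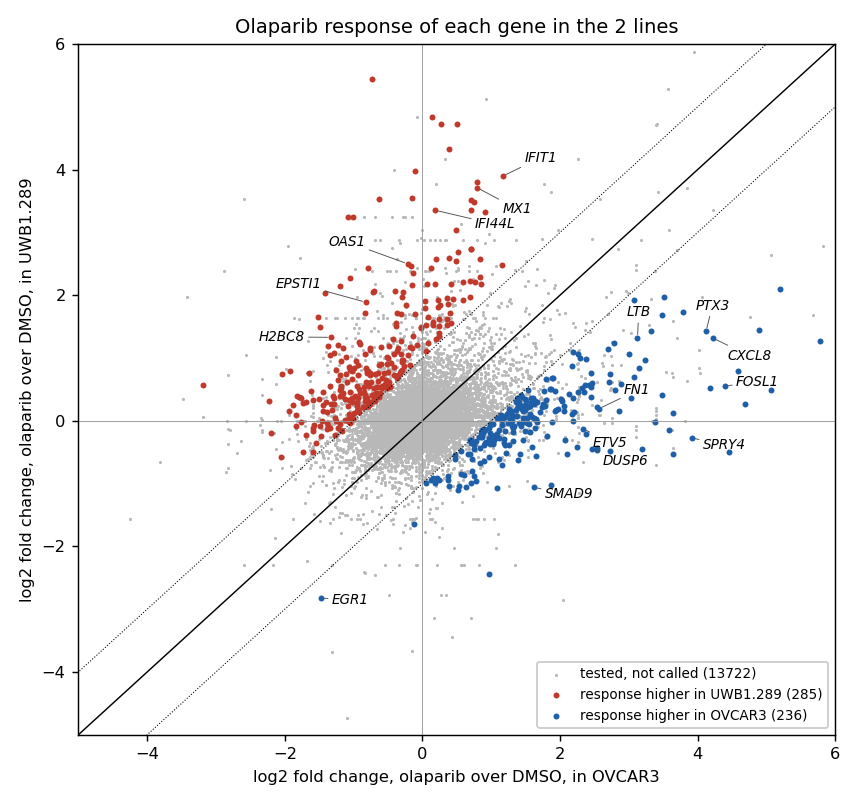
Log2 fold change of olaparib over DMSO in OVCAR3 (x axis) against the same in UWB1.289 (y axis), 1 point per tested gene, 4 libraries per group. The solid line marks equal change and the dotted lines a difference of 1. The 285 red genes include the interferon-stimulated genes IFI44L, MX1 and IFIT1, and the 236 blue genes include DUSP6, SPRY4, FOSL1, CXCL8 and FN1.

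Starting levels differed between the directions as well. Of the 236 genes with the higher response in OVCAR3, 208 (88.1%) had a lower mean normalized count in OVCAR3 than in UWB1.289 with DMSO, against 49.0% of all tested genes. With olaparib the mean count was still lower in OVCAR3 for 171 of the 236 (72.5%). Of the 285 genes with the higher response in UWB1.289, 72 (25.3%) were lower in OVCAR3 with DMSO and 149 (52.3%) with olaparib. The DMSO libraries enter both the starting level and the response, so these shares are a description and were not tested. On a linear scale, which was added after seeing the data, the change in mean normalized count had the other sign of difference for 53 of the 236 genes and for 12 of the 285.

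The largest group with the higher response in UWB1.289 was the interferon-stimulated genes, for which 65 of 67 listed genes could be tested. Of the 65, 38 (58.5%) were called, all 38 with the higher response in UWB1.289, against 2.0% of all tested genes. Their median log2 difference over the 65 was 1.33, from a median change of 1.85 in UWB1.289 and 0.41 in OVCAR3. Without the fold threshold 51 of the 65 were past the adjusted p with a positive difference and 1 with a negative one, BST2 (tetherin, which holds budding virus at the cell surface) at -0.55. The mean log2 CPM of the 65 genes was 3.83 to 4.02 in the UWB1.289 DMSO libraries and 5.67 to 5.85 in the olaparib libraries. In OVCAR3 it was 3.40 to 3.48 with DMSO and 3.81 to 3.88 with olaparib.

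Promoters of these genes and of the chemokines described further on are shown because the members moved together. The sequences are from RefSeq (build GRCh38.p14), cover 250 bases before to 50 bases after the annotated start, and read 5′ to 3′ along the gene. In the first 3 the capitals mark the letters GAAANNGAA, an ISRE core, on either strand. IFIT1 (chr10:89392373-89392672, plus strand) holds it at 2 places, ISG15 (chr1:1013247-1013546, plus strand) at 3 that overlap each other and MX1 (chr21:41420308-41420607, plus strand) at 2 that overlap each other.
IFIT1: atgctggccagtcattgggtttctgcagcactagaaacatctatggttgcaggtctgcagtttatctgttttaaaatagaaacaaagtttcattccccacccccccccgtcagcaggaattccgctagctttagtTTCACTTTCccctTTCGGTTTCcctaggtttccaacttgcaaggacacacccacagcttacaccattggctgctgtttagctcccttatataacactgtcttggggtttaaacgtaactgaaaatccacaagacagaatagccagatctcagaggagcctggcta
ISG15: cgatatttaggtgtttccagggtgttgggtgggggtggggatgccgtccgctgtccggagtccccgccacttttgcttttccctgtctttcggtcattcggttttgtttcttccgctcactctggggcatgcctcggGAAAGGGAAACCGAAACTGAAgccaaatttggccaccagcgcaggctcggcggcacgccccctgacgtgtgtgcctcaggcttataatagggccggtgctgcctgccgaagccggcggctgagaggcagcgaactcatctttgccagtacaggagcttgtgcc
MX1: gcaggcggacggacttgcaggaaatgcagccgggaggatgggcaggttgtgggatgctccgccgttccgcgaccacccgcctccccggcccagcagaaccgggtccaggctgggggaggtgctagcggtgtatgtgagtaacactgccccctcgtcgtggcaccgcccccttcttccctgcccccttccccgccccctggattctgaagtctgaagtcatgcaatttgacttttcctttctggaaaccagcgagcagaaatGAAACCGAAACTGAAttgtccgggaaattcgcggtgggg
The motif was present in 8.29% of all 27305 promoters and in 6.18% of the 10591 that matched a tested gene. It was present in 19 of the 30 matched promoters of called interferon-stimulated genes (63.3%) and in 14 of 20 of those tested but not called (70.0%). Among called genes outside the interferon list with the higher response in UWB1.289 it was present in 19 of 163 (11.7%), and among called genes with the higher response in OVCAR3 in 5 of 158 (3.16%).

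IFI44L, an interferon-induced gene of the IFI44 family, had the largest positive log2 difference among genes with an average count above 10 in each line. Its normalized count was 99.6, 142, 74.5 and 103 in the UWB1.289 DMSO libraries and 1069, 992, 1006 and 1200 with olaparib. In OVCAR3 it was 76.1, 65.8, 67.6 and 67.9 with DMSO and 95.7, 78.9, 73.8 and 67.5 with olaparib. The lines thus started at similar levels, all 4 UWB1.289 olaparib libraries lay far above the rest, and the OVCAR3 groups overlapped. The log2 responses differed by 3.17 (SE 0.206, 95% interval 2.76 to 3.57, edgeR adjusted p = 2.14e-11).

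MX1, a dynamin-like GTPase that blocks viral replication, rose in both lines. Its normalized count went from 88.9, 165, 99.3 and 162 to 1774, 1390, 1677 and 1930 in UWB1.289. In OVCAR3 it went from 86.8, 102, 97.6 and 93.9 to 165, 182, 158 and 155. The groups did not overlap in either line, and the log2 difference was 2.92 (SE 0.210, edgeR adjusted p = 9.69e-11). IFIT1, whose protein binds viral RNA that lacks cap methylation, was at 27.9 to 50.8 with DMSO and 539 to 616 with olaparib in UWB1.289, and at 7.50 to 15.0 and 14.1 to 32.0 in OVCAR3. It rose in both lines as well, by 3.89 and 1.17 on the log2 scale, a difference of 2.73 (SE 0.359, edgeR adjusted p = 5.22e-06). IFIT1 (chr10:89392546-89406487), IFIT2 (chr10:89283694-89309271), IFIT3 (chr10:89327307-89377473) and IFIT5 (chr10:89414568-89421605) lie side by side on chromosome 10 of GRCh38, and all 4 were called. Since they are related in sequence, how reads shared between them were assigned could move their separate values.

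OAS1, which makes the 2'-5' oligoadenylates that activate RNase L, differed in another way. In UWB1.289 it rose from between 128 and 199 normalized counts to between 889 and 1021. In OVCAR3 the groups overlapped, at 47.7 to 85.7 with DMSO and 47.5 to 63.7 with olaparib. Its log2 difference was 2.71 (SE 0.214, edgeR adjusted p = 5.44e-10), and that of SAMD9, an antiviral factor that also rose in UWB1.289 alone, was 2.63 (SE 0.249, edgeR adjusted p = 1.25e-08). Of the 38 called interferon-stimulated genes, 24 passed the adjusted p in UWB1.289 alone, 13 rose in both lines and 1 moved oppositely.

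That exception was EPSTI1, an interferon-induced gene first described in epithelial cells next to stroma. It went from 266, 231, 122 and 215 to 732, 748, 746 and 862 normalized counts in UWB1.289. In OVCAR3 it fell from 121, 107, 140 and 115 to 64.5, 73.8, 69.2 and 66.6. All libraries of each group were apart from the matching group, and the log2 difference was 2.71 (SE 0.219, edgeR adjusted p = 7.22e-10). UBE2L6 (-0.14), USP18 (-0.03) and DHX58 (-0.42) also had negative log2 changes in OVCAR3, but none of these passed the test there.

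**Figure D2:**
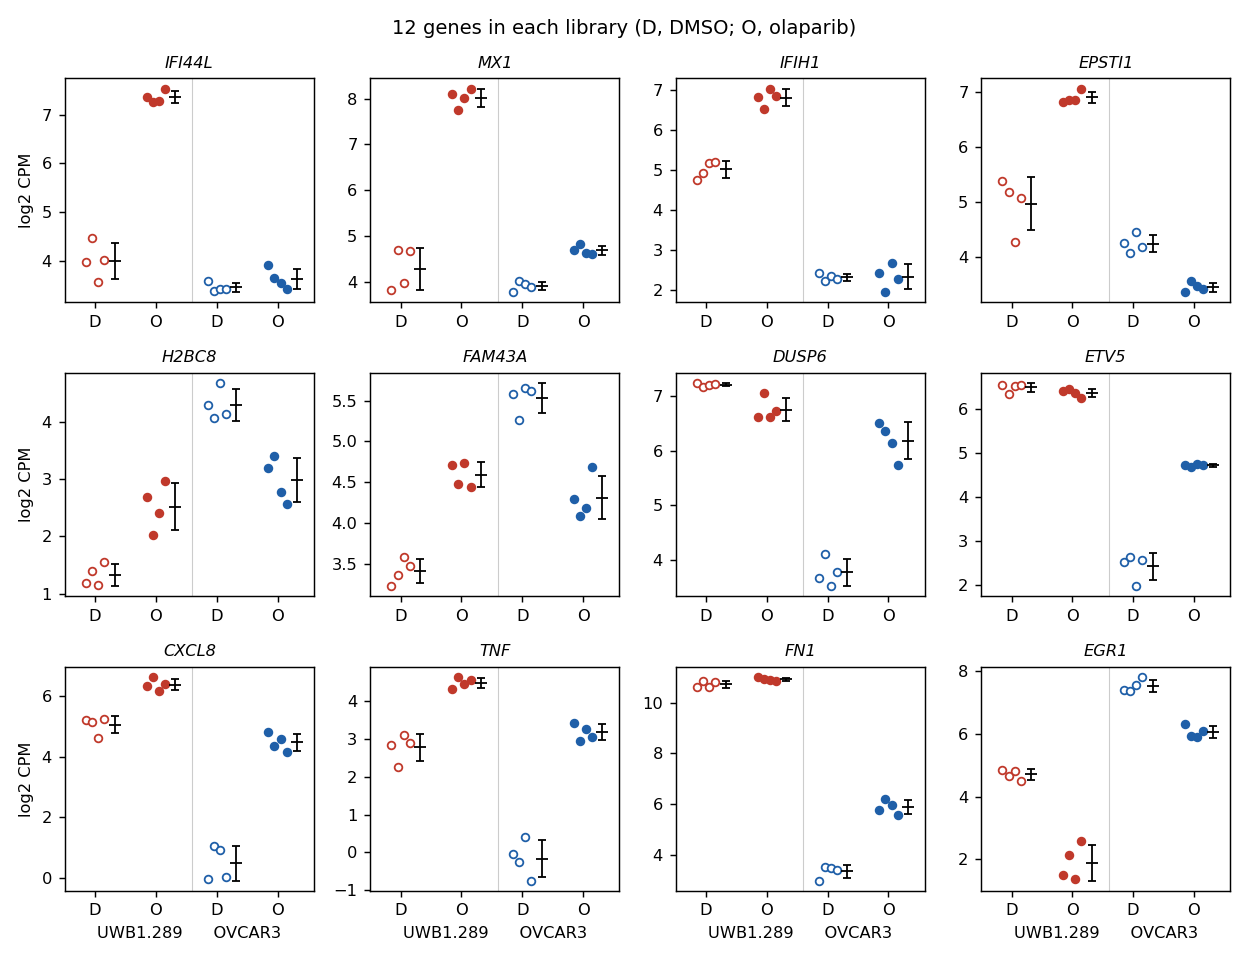
Log2 CPM (prior count 2) of 12 genes in each of the 16 libraries, with UWB1.289 in red, OVCAR3 in blue, DMSO as open and olaparib as filled points, and the mean ± SD of each group beside them (n = 4). IFI44L, MX1 and IFIH1 rise mostly in UWB1.289, EPSTI1, H2BC8 and FAM43A move in opposite directions, and DUSP6, ETV5, CXCL8, TNF and FN1 move mostly in OVCAR3.

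The ISG15 system attaches the small protein ISG15 to other proteins, and all 6 of its tested genes were called with the higher response in UWB1.289. ISG15 itself went from between 535 and 647 normalized counts to between 2698 and 3147 in UWB1.289, and from between 129 and 170 to between 241 and 292 in OVCAR3, so the log2 responses differed by 1.45 (SE 0.135, edgeR adjusted p = 9.25e-09). The ligases HERC5 and HERC6 differed by 2.02 and 2.31, the activating enzyme UBA7 by 1.27, the conjugating enzyme UBE2L6 by 1.5 and USP18, which removes ISG15 again, by 1.52. All 5 interferon-inducible genes of the PARP group were called too. PARP9 and its partner DTX3L, which act together in ubiquitin transfer, differed by 1.99 and 1.15, and PARP10, PARP12 and PARP14 by 1.33, 1.16 and 1.5. PARP14, an ADP-ribosyltransferase, started higher in OVCAR3, at 1265 to 1569 normalized counts against 561 to 677 in UWB1.289 with DMSO. With olaparib it was at 1714 to 2036 in OVCAR3 and 2158 to 2477 in UWB1.289.

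Although 63 of the 65 interferon-stimulated genes had a positive difference, some gave no call or an unstable one. OAS2, a relative of OAS1, did not pass the test (edgeR adjusted p = 0.611) at an average of 3.62 normalized counts in OVCAR3. IFI16, a DNA sensor, differed by 0.60 (edgeR adjusted p = 0.722) at an average of 4.62 there, a level at which a difference of this size was not detectable. GBP2, a guanylate-binding GTPase, was well measured in both lines and changed by 1.20 and 1.02, a difference of 0.18 (edgeR adjusted p = 0.733). TRIM22, an antiviral ubiquitin ligase, had a log2 difference of 3.70 but only 0 to 6 reads per UWB1.289 DMSO library. Its call was lost without UWB1.289 olaparib replicate 1, 3 or 4 (log2 differences of 3.72, 3.82 and 3.23).

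Ligands, receptors and signalling genes upstream of this group gave the following values. No interferon ligand gene of 9 passed the count filter, and IFNB1 (interferon beta) had 1 read in the 16 libraries together, so a difference in ligand RNA was not detectable at this depth. None of the 6 receptor genes was called, against 3.66% of all tested genes, with log2 differences between -0.56 and 0.44. IRF7, IRF1 and STAT2, transcription factors of the pathway, passed the adjusted p below the fold threshold with differences of 0.87, 0.70 and 0.71. IRF3, TYK2 and JAK1 passed it on the other side, at -0.82, -0.79 and -0.32.

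Among 19 tested genes of nucleic acid sensing 2 were called, both among the 8 on the RNA side, against 3.66% of all tested genes. IFIH1, which encodes the double-stranded RNA sensor MDA5, went from between 173 and 238 normalized counts to between 590 and 846 in UWB1.289, with no overlap, and stayed within 23.3 to 39.7 in all OVCAR3 libraries. Its log2 difference was 1.75 (SE 0.239, edgeR adjusted p = 8.83e-06). DHX58, which encodes the related LGP2, differed by 1.73 (SE 0.418, edgeR adjusted p = 0.00778), from low counts of 6 to 51 reads per library. EIF2AK2 (the kinase PKR) and ADAR, which edits double-stranded RNA, passed the adjusted p at 0.78 and 0.68. None of the 11 tested genes of the DNA-sensing group was called. At 3.66% over all tested genes a group this small can hold none, so the counts do not set the RNA and DNA sides apart. STING1 was at 38.2 and 56.9 mean normalized counts in OVCAR3 with DMSO and olaparib and at 45.6 and 60.5 in UWB1.289, so the log2 responses differed by -0.17 (95% interval -0.72 to 0.38). CGAS had at most 3 reads in any OVCAR3 library against 100 to 182 in UWB1.289, so no difference of response could be measured. Below the criteria of the call, 2 of the 11 passed the adjusted p, 1 in each direction. RNASEH2B, a subunit of the enzyme that removes ribonucleotides from DNA, did so at -0.68 (edgeR adjusted p = 0.0235). ZBP1, a sensor of Z-form nucleic acid, did so in the other direction (edgeR adjusted p = 0.00524), with mean counts of 1.71 and 14 in UWB1.289 and 7.70 and 1.93 in OVCAR3, so its fitted value depends on the prior count and is not given.

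Antigen presentation genes mostly lacked a difference past the thresholds. Of 24 tested, 2 were called, both with the higher response in UWB1.289, against 2.0% of all tested genes. TAP1, one chain of the peptide transporter, went from between 34.6 and 44.0 normalized counts to between 142 and 164 in UWB1.289 and from between 31.1 and 47.4 to between 48.0 and 73.8 in OVCAR3, so the log2 responses differed by 1.28 (SE 0.256, edgeR adjusted p = 0.00143). PSMB9, an immunoproteasome subunit, differed by 1.34 (SE 0.289, edgeR adjusted p = 0.00308). CD74, the class II invariant chain, passed the adjusted p in the other direction at -0.70. Among 18 tested checkpoint and costimulatory ligands, 3 were called with the higher response in UWB1.289 and 2 with the higher response in OVCAR3. The shares of all tested genes were 2.0% and 1.66%. LGALS9 (galectin-9, a ligand of TIM-3) went from between 10.3 and 14.5 to between 70.7 and 95.7 normalized counts in UWB1.289 and from between 234 and 311 to between 339 and 442 in OVCAR3, so the log2 responses differed by 2.16 (SE 0.234, edgeR adjusted p = 1.63e-07). MICB, a stress ligand of the NKG2D receptor, went from between 18.8 and 39.6 to between 94.1 and 135 in OVCAR3, a difference of -1.83 (SE 0.208, edgeR adjusted p = 4.46e-07). In UWB1.289 it was at 313 to 334 and 354 to 407, a change that did not pass the test. MICB is a close relative of MICA, and reads shared between them are uncertain. TNFSF15, a cytokine of the TNF family, was called higher in UWB1.289 at 2.27. VTCN1, a checkpoint ligand, was called at 1.08, and this call was lost without any of 9 single libraries (0.70 to 1.08). TNFRSF9, a costimulatory receptor, had 0 or 1 read per OVCAR3 DMSO library. Against a floor of 3 reads, with the UWB1.289 change taken at its estimate, its log2 responses differed in size by at least 0.08. The higher one was in OVCAR3, and that value leaves out the spread of the libraries. Its call was also lost without any of 9 single libraries.

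Replication-dependent histone genes, whose main transcripts end in a stem-loop and not in a poly(A) tail, formed the other group with the higher response in UWB1.289. Of 66 listed genes 26 were tested and 7 were called (26.9%), all 7 in that direction, against 2.0% of all tested genes, with a median log2 difference over the 26 of 0.71. The median change was 0.41 in UWB1.289 and -0.78 in OVCAR3. H2BC8, an H2B gene at chr6:26216200-26216688, went from 12.7, 15.1, 12.4 and 17.1 to 39.6, 24.2, 32.2 and 48.7 normalized counts in UWB1.289. In OVCAR3 it fell from 124, 107, 163 and 112 to 57.4, 66.8, 42.4 and 36.4. No groups overlapped within a line, and the difference was 2.66 (SE 0.342, edgeR adjusted p = 3.76e-06). H2AC6, H2BC21 and H2BC5 also went in opposite directions, with differences of 2.12, 2.14 and 1.68, whereas H4C8 (1.74) fell in OVCAR3 alone and H3C10 (2.08) and H4C5 (1.6) rose in UWB1.289 alone. The linker histone genes H1-3 and H1-4 fell in both lines, with differences of 0.39 and 0.06 that did not pass the test. These genes are near-identical copies, so which copy a read belongs to is uncertain.

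**Figure D3:**
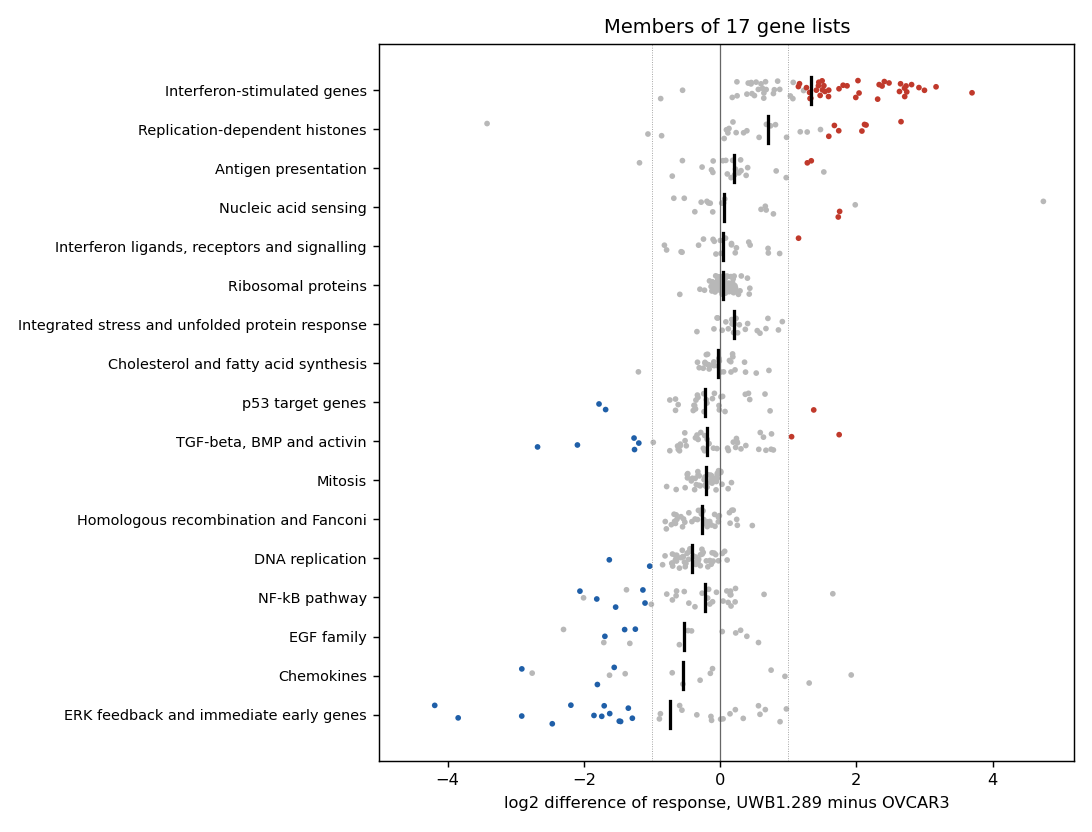
Log2 difference of response (UWB1.289 minus OVCAR3, x axis) of every tested member of 17 gene lists, with red and blue points for genes called in either direction, grey for the rest and a black bar at the list median. Interferon-stimulated genes have their median at 1.33 and ERK feedback and immediate early genes at -0.74, and the 84 ribosomal protein genes lie close to 0.

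In the other direction, the genes listed as ERK feedback stood out by count. The list holds the DUSP, SPRY and SPRED inhibitors, and also the ETV transcription factors, IER3 and PHLDA1. All 16 feedback genes could be tested and 11 (68.8%) were called, all 11 with the higher response in OVCAR3, against 1.66% of all tested genes. Their median log2 difference over the 16 was -1.55, from medians of -0.02 in UWB1.289 and 1.71 in OVCAR3. The inhibitor genes DUSP1 (0.56), SPRY1 (-0.89), SPRED1 (-0.59), SPRED2 (-0.56) and SPRED3 (-0.88) were not called. DUSP6, the phosphatase of ERK in the cytoplasm, went from 80.4, 110, 72.3 and 86.4 to 587, 534, 455 and 342 normalized counts in OVCAR3. In UWB1.289 it fell from 979, 934, 959 and 968 to 636, 859, 636 and 683. Neither line had overlapping groups, and even with olaparib every OVCAR3 library stayed below every UWB1.289 library. The log2 difference was -2.91 (SE 0.191, 95% interval -3.28 to -2.54, edgeR adjusted p = 2.14e-11).

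ETV5, a transcription factor of the PEA3 group, showed the same contrast without a change in UWB1.289. It stood at 521 to 603 normalized counts with DMSO and 486 to 565 with olaparib there, and went from between 23.5 and 38.6 to between 164 and 171 in OVCAR3, so the log2 responses differed by -2.46 (SE 0.164, edgeR adjusted p = 2.14e-11). Its relatives ETV4 and ETV1 differed by -1.62 and -1.74, the phosphatase genes DUSP2, DUSP4 and DUSP5 by -1.46, -1.70 and -1.29, SPRY2 by -1.48, IER3 by -1.85 and PHLDA1 by -2.19. SPRY4, an inhibitor of receptor tyrosine kinase signalling, had 0 to 3 reads per OVCAR3 DMSO library and 16 to 28 with olaparib. Its rise was at least 6.82-fold against a floor of 3 reads per library, a bound that covers counting error only. UWB1.289 changed by -0.27 on the log2 scale with no pass. With that change taken at its estimate, the log2 responses differed in size by at least 3.04. That value leaves out the spread of the libraries, and the 95% interval of the fitted difference was -5.53 to -2.85. FOSL1, the AP-1 subunit FRA1, had 0 to 3 reads in OVCAR3 with DMSO and 20 to 33 with olaparib, at least 7.79-fold, against a rise of 0.55 on the log2 scale in UWB1.289.

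Of 14 tested immediate early factors 2 were called, FOSL1 and EGR1, both with negative differences, against 1.66% of all tested genes. The median log2 difference over the 14 was 0.09. EGR1, a zinc-finger factor induced within minutes of ERK activation, fell in both lines, from 187, 160, 181 and 145 to 16.1, 26.5, 14.6 and 36.7 normalized counts in UWB1.289. In OVCAR3 it fell from 1105, 1076, 1223 and 1452 to 519, 396, 386 and 446. The fall was the deeper one in UWB1.289, with a log2 contrast between the lines of -1.35 (SE 0.240, edgeR adjusted p = 0.000348). JUN and FOSL2, other AP-1 subunits, passed the adjusted p in the opposite direction at 0.88 and 0.97. Among the EGF family, which feeds this pathway, 3 of 8 tested ligands were called. All 3 had the higher response in OVCAR3, against 1.66% of all tested genes. AREG (amphiregulin) went from between 47.4 and 80.6 to between 334 and 449 normalized counts in OVCAR3 and from between 600 and 871 to between 985 and 1383 in UWB1.289, so the log2 responses differed by -1.69 (SE 0.198, edgeR adjusted p = 7.52e-07). TGFA differed by -1.24 (SE 0.189, edgeR adjusted p = 4.29e-05). NRG1, the ligand of ERBB3 and ERBB4, rose in OVCAR3 from between 40.0 and 49.9 to between 78.9 and 104 and fell in UWB1.289 from between 211 and 246 to between 150 and 198, a log2 contrast between the lines of -1.40 (SE 0.188, edgeR adjusted p = 6.85e-06). None of the 6 receptors and regulators of the family was called, against 3.66% of all tested genes.

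The called chemokine and NF-kB genes rose in both lines, with the larger rise in OVCAR3. Among 15 tested chemokines 3 were called and among 32 tested NF-kB pathway genes 5, all 8 of them with the higher response in OVCAR3, against 1.66% of all tested genes. The median log2 differences of the lists were -0.55 and -0.22. Not all members went this way. Of the 15 chemokines 4 had a positive difference, and 1 passed the adjusted p with a positive difference and 4 with a negative one. The 2 tested ligands of the receptor CXCR3 had a median difference of 1.44, and neither passed the adjusted p. Of the 32 NF-kB pathway genes 11 had a positive difference, and 1 passed the adjusted p with it and 8 with a negative one. Capitals in the promoters of CXCL8 (chr4:73740319-73740618, plus strand), CXCL1 (chr4:73869143-73869442, plus strand) and LTB (chr6:31582376-31582675, minus strand) mark the NF-kB type letters GGANTTTCC, on either strand, with 1 match each that overlapped no match of the other motifs searched.
CXCL8: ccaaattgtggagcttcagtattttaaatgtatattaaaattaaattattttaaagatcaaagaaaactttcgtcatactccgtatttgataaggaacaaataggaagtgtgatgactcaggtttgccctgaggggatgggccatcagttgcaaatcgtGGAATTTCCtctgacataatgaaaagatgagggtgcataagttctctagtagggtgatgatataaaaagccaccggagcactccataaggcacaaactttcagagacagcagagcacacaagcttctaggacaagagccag
CXCL1: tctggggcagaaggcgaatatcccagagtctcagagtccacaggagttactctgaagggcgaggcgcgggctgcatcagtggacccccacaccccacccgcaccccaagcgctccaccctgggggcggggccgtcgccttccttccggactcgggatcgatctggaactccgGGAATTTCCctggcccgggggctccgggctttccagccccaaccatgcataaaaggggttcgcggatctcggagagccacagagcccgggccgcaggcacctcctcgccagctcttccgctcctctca
LTB: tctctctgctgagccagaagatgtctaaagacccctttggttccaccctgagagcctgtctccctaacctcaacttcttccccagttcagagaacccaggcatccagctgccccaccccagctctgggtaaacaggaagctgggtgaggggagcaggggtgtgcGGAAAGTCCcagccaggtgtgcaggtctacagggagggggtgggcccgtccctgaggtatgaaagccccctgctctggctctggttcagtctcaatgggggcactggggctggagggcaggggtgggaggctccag
This motif was present in 1.64% of all promoters, in 4 of the 6 matched promoters of the called genes on the 2 lists and in 12 of 31 (38.7%) of those not called. It was present in 12 of 158 called genes with the higher response in OVCAR3 (7.59%) and in 6 of 193 with the higher response in UWB1.289 (3.11%). The AP-1 letters TGANTCA, also searched on both strands, were in 15 of the 158 (9.49%) and in 22 of the 193 (11.4%), against 4.48% of matched tested genes. Of the 11 called ERK feedback genes 6 had a matched promoter, and none of these 6 held the AP-1 letters in this window.

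CXCL8 (interleukin-8, which attracts neutrophils) went from 4.29, 11.3, 10.3 and 4.65 to 180, 132, 153 and 113 normalized counts in OVCAR3. In UWB1.289 it went from 238, 226, 158 and 244 to 521, 633, 465 and 543. The rise was clear of the replicate spread in both lines, and OVCAR3 with olaparib remained below UWB1.289 with olaparib in every library. The log2 responses differed by -2.91 (SE 0.310, edgeR adjusted p = 1.25e-07). CXCL1, a ligand of the same receptor CXCR2, went from between 71.6 and 112 to between 739 and 1275 in OVCAR3 and from between 230 and 323 to between 794 and 1243 in UWB1.289, a difference of -1.80 (SE 0.228, edgeR adjusted p = 2.99e-06). CXCL2 and CXCL3 had differences of -0.70 and -0.11, and neither passed the test. CXCL5 and CXCL6 did not pass it either and have no usable fitted value, since CXCL5 averaged 0.46 normalized counts in OVCAR3 with DMSO and CXCL6 was at 0 in UWB1.289 with DMSO. CX3CL1 (fractalkine) differed by -1.55 (SE 0.242, edgeR adjusted p = 5.95e-05).

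TNF, the cytokine that both activates and is induced by NF-kB, had 2 to 7 reads per OVCAR3 DMSO library and 48 to 67 with olaparib. In UWB1.289 it had 27 to 54 reads and 120 to 153. This gave a log2 contrast between the lines of -2.06 (SE 0.379, edgeR adjusted p = 0.000543). LTB (lymphotoxin beta, a membrane ligand of the TNF family) differed by -1.81 (SE 0.232, edgeR adjusted p = 3.67e-06), BIRC3, an inhibitor of apoptosis, by -1.53 (SE 0.398, edgeR adjusted p = 0.0142) and NFKBIE, which holds NF-kB in the cytoplasm, by -1.13 (SE 0.315, edgeR adjusted p = 0.0229). BIRC3 had 0 to 4 reads per OVCAR3 DMSO library. The call of NFKBIE was lost without UWB1.289 DMSO replicate 3, at -0.99. Of the 5 NF-kB subunits none was called, against 3.66% of all tested genes, and NFKB2 passed the adjusted p at -0.78. On the linear scale 5 of the 8 called genes of these lists went the other way. The mean normalized count of LTB rose by 1119 in UWB1.289 and by 124 in OVCAR3, that of TNF by 101 and 53.3 and that of CXCL8 by 324 and 137. Acute-phase genes with the higher log2 response in OVCAR3 were PTX3 (pentraxin 3, -2.70, SE 0.249, edgeR adjusted p = 8.49e-09) and LCN2 (lipocalin 2, which binds bacterial iron carriers, -1.28, SE 0.176, edgeR adjusted p = 9.56e-06). SERPINA1 (antitrypsin) was called the other way from at most 2 reads per UWB1.289 DMSO library. Against a floor of 3 reads, with the OVCAR3 change taken at its estimate, the size of its log2 difference was at least 0.60, without the spread of the libraries. That call was lost with DESeq2 and without any of 6 single libraries.

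**Figure D4:**
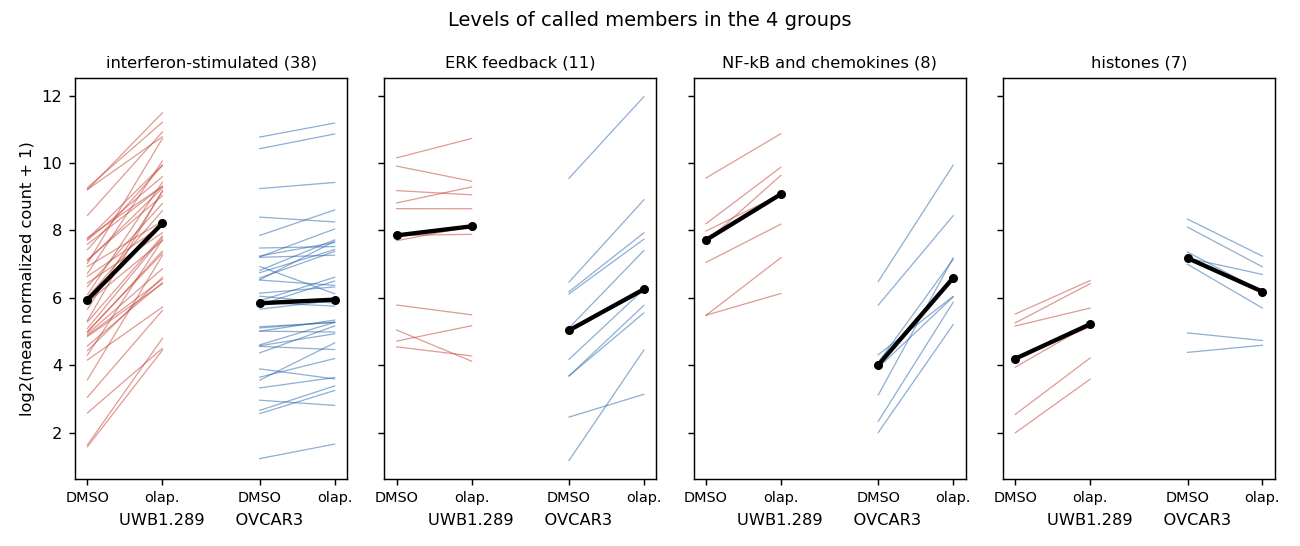
Mean normalized count of each called member of 4 groups of genes on a log2 axis (count plus 1), joined from DMSO to olaparib in UWB1.289 (red) and in OVCAR3 (blue), with the median of the members in black. The 38 interferon-stimulated genes start at similar medians (60.5 and 56.2), and the 11 ERK feedback genes and the 8 NF-kB and chemokine genes start lower in OVCAR3 (31.7 against 230 and 15.1 against 209).

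Starting levels of these groups are set beside those of all genes called in the same direction, and were not tested. All 11 called ERK feedback genes and all 8 called NF-kB and chemokine genes had the lower DMSO mean in OVCAR3. So did 88.1% of all 236 genes with the higher response in OVCAR3. With olaparib 7 and 6 of them were still lower there, against 72.5% of the 236, so both sets were near the shares of their direction. Of the 38 called interferon-stimulated genes 20 (52.6%) were lower in OVCAR3 with DMSO and 34 (89.5%) with olaparib. The shares of all 285 genes with the higher response in UWB1.289 were 25.3% and 52.3%. The called histone genes started higher in OVCAR3 (a median over the 7 of 144 against 17.2 normalized counts) and stood at 71.6 and 36.2 with olaparib.

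DNA replication genes differed by less per gene, and those past the adjusted p did so in 1 direction. Of 50 tested, 3 had a positive difference and 21 passed the adjusted p, all 21 with the higher response in OVCAR3, where 830 of all 14243 tested genes did so. The median log2 difference was -0.42, from -0.20 in UWB1.289 and 0.21 in OVCAR3. The mean log2 CPM of the 50 genes was 5.36 to 5.40 with DMSO and 5.17 to 5.18 with olaparib in UWB1.289, and 5.02 to 5.19 and 5.32 to 5.36 in OVCAR3, so the groups were apart in both lines and the olaparib libraries shifted down in UWB1.289 and up in OVCAR3. Among them 2 passed the fold threshold and were called, or 4% of the 50 against 1.66% of all tested genes. E2F2, a transcription factor that drives entry into S phase, differed by -1.63 (SE 0.334, edgeR adjusted p = 0.00186), with 18.5 ± 7.65 normalized counts against 39.8 ± 11.5 in UWB1.289 and 161 ± 33.3 against 112 ± 17.9 in OVCAR3 (olaparib against DMSO, mean ± SD, n = 4). CDT1, which loads the replicative helicase at origins, went from between 485 and 498 to between 354 and 476 in UWB1.289 and from between 108 and 123 to between 179 and 204 in OVCAR3, a difference of -1.03 (SE 0.145, edgeR adjusted p = 1.44e-05). That value sits at the fold threshold, and without UWB1.289 olaparib replicate 2 or OVCAR3 DMSO replicate 2 it was -0.99 and -1.0 and the call was lost. CCNE1 (cyclin E1), MCM3, MCM10 and PCNA passed the adjusted p at -0.84, -0.71, -0.70 and -0.46.

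Repair and division genes showed smaller differences. None of 38 homologous recombination and Fanconi genes was called, against 3.66% of all tested genes. Of the 38, 8 passed the adjusted p, all 8 negative, where 830 of all 14243 tested genes passed it with a negative difference. Among the 8 were FANCG, UBE2T, FANCI, FANCA and FANCD2 of the Fanconi pathway at -0.80, -0.79, -0.72, -0.67 and -0.55. BRCA1 RNA was at 138 to 184 normalized counts with DMSO and 139 to 163 with olaparib in UWB1.289, and at 262 to 332 and 308 to 338 in OVCAR3. Its log2 difference of -0.28 did not pass the test (95% interval -0.58 to 0.03, edgeR adjusted p = 0.330), and gene-level counts carry no information on the mutation. PARP1, the main target of olaparib, differed by -0.10 (95% interval -0.32 to 0.12, edgeR adjusted p = 0.688). Of 43 mitosis genes 8 passed the adjusted p, all 8 negative, against the same 830 of 14243. They lay between -0.78 for SPC25 (a kinetochore protein) and -0.32 for NCAPG (a condensin subunit). CCND1 (cyclin D1), the G1 cyclin induced by growth factors, rose in OVCAR3 from between 941 and 1406 to between 2046 and 2481 and fell in UWB1.289 from between 5342 and 5851 to between 4221 and 4942 normalized counts, a difference of -1.34 (SE 0.132, edgeR adjusted p = 2.61e-08).

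For p53 targets 3 of 30 tested genes were called, against 3.66% of all tested genes. FAS, a death receptor, went from between 10.7 and 18.2 to between 45.5 and 64.6 normalized counts in OVCAR3 and had overlapping groups in UWB1.289 (72.5 to 99.6 and 80.1 to 122), a log2 contrast between the lines of -1.78 (SE 0.284, edgeR adjusted p = 8.28e-05). BTG2, which restrains proliferation, differed by -1.68, falling in UWB1.289 and rising in OVCAR3, and PHLDA3, an inhibitor of AKT, differed by 1.37 with 2 to 8 reads per UWB1.289 DMSO library and a call lost without any of 6 single libraries (1.08 to 1.33). CDKN1A (p21), the best known p53 target, rose in both lines by 1.07 and 1.44, a difference of -0.37 (95% interval -0.97 to 0.22, edgeR adjusted p = 0.536). Among 33 cell death genes, BIK, a pro-apoptotic BCL2 relative, differed by -1.40 (SE 0.368, edgeR adjusted p = 0.0156). BOK, of the same family, was called at -1.08 and lost without any of 4 single libraries (-0.97 to -0.93).

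Among matrix, adhesion and mesenchymal genes, some had a higher response in OVCAR3. FN1 (fibronectin) went from 49.3, 72.6, 71.3 and 66.0 to 356, 475, 401 and 306 normalized counts in OVCAR3. In UWB1.289 it was at 10028 to 11991 with DMSO and 11942 to 13186 with olaparib, a change that did not pass the test. The log2 difference was -2.37 (SE 0.160, edgeR adjusted p = 2.33e-11), and OVCAR3 stayed more than an order of magnitude below UWB1.289 throughout. CDH2 (N-cadherin) and VIM (vimentin) differed by -1.25 and -1.07, and 3 of 12 tested mesenchymal genes were called in all. All 3 had the higher response in OVCAR3, against 1.66% of all tested genes. ITGB3, the integrin chain that binds fibronectin and vitronectin, differed by -2.70 (SE 0.269, edgeR adjusted p = 3.56e-08), NID1 (nidogen) by -2.32 and ITGA5, the fibronectin receptor chain, by -1.75. Of 59 tested matrix and integrin genes 8 were called with the higher response in OVCAR3, against 1.66% of all tested genes, and 1, the collagen gene COL27A1 (1.27), in the other direction. The median log2 difference over the 59 was -0.13, and 23 of them had a positive one. Of 17 epithelial genes CLDN1 (claudin-1, -1.67) and the transcription factor OVOL1 (-1.32) were called, or 11.8% against 1.66% of all tested genes. Most of the 17 went the other way, with 13 positive and a median log2 difference of 0.30. Past the adjusted p were 5 with a positive difference and 2 with a negative one. The junction genes CLDN3 and CGN passed it with positive differences of 0.84 and 0.96.

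Proteases and their inhibitors moved with the matrix genes in part. SERPINE2, an inhibitor of plasminogen activators and thrombin, differed by -1.98 (SE 0.283, edgeR adjusted p = 1.74e-05). PLAU (urokinase) had 560, 530, 552 and 94 reads in the OVCAR3 olaparib libraries, and 53 to 91 in the DMSO libraries. After scaling, replicate 4 lay within the DMSO range, at 83.5 normalized counts against 56.8 to 102. The UWB1.289 libraries were spread as well, at 387 to 901 reads with DMSO and 377 to 1464 with olaparib. Its log2 difference of -1.85 was called with edgeR (SE 0.531, adjusted p = 0.0284) and not with DESeq2 (-1.86). PLAT (tissue plasminogen activator) differed by -1.31, and by -0.98 with the call lost without UWB1.289 DMSO replicate 4. ADAM8, a membrane metalloprotease, was called the other way at 1.16 (SE 0.289, edgeR adjusted p = 0.0104).

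In the TGF-beta, BMP and activin families 7 of 45 tested genes were called, against 3.66% of all tested genes. The secreted inhibitors FST (follistatin, which binds activin) and NOG (noggin, which binds BMP) fell in OVCAR3 alone and so had positive differences. FST went from 1024, 785, 943 and 1095 to 293, 269, 269 and 298 normalized counts there and had overlapping groups in UWB1.289, so the log2 responses differed by 1.75 (SE 0.169, edgeR adjusted p = 1.92e-08). NOG differed by 1.05, and by 0.96 to 0.97 with the call lost without UWB1.289 olaparib, OVCAR3 DMSO or OVCAR3 olaparib replicate 4. The signal transducer SMAD9 rose in OVCAR3 from between 16 and 25.7 to between 54.4 and 79.9 and had 1 to 19 reads in UWB1.289, a difference of -2.68 (SE 0.498, edgeR adjusted p = 0.000604). TGFBI, a matrix protein named for its induction by TGF-beta, differed by -2.09 (SE 0.438, edgeR adjusted p = 0.00225), from 1 to 4 reads per OVCAR3 DMSO library. The ligand TGFB1 differed by -1.19, with a change past the adjusted p in neither line. ENG (endoglin) and SMAD7 were called at -1.26 each. The call of ENG was lost without UWB1.289 DMSO replicate 1 (-1.10) or OVCAR3 DMSO replicate 4 (-1.09), and that of SMAD7 without any of 9 single libraries (-1.29 to -1.08).

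Further genes with opposite directions lay outside these lists. FAM43A, of unknown role, went from 58.6, 64.9, 75.5 and 70.2 to 168, 142, 171 and 139 normalized counts in UWB1.289. In OVCAR3 it fell from 310, 246, 326 and 317 to 125, 108, 115 and 164. The log2 responses differed by 2.42 (SE 0.198, edgeR adjusted p = 8.03e-10), and olaparib brought the lines to overlapping levels. GPRC5B, an orphan receptor, went from between 98.4 and 182 to between 277 and 302 in UWB1.289 and from between 232 and 279 to between 84.6 and 120 in OVCAR3, a difference of 2.4 (SE 0.196, edgeR adjusted p = 8.23e-10). SLC7A8, an amino acid transporter, differed by 2.32 (SE 0.368, edgeR adjusted p = 7.33e-05). TCIRG1, a subunit of the vacuolar proton pump, was the reverse case at -2.16 (SE 0.518, edgeR adjusted p = 0.00766) from 5 to 27 reads per library. LRRC8D-DT (2.55), a divergent transcript at the LRRC8D gene, also had opposite directions, but the treatment of strand is not stated and its reads cannot be told apart from those of an overlapping neighbour. BCAS1 had 2 or 3 reads per UWB1.289 DMSO library. Against a floor of 3 reads, with the OVCAR3 change taken at its estimate, its log2 responses differed in size by at least 3.06. That value leaves out the spread of the libraries, and the 95% interval of the fitted difference was 1.88 to 4.45. Its call was lost without OVCAR3 DMSO replicate 1, 3 or 4, which took its average to 10 or less. MUC16, the gene of the CA-125 antigen, had 606 to 2154 reads per OVCAR3 DMSO library and a difference of 1.28 (SE 0.332, edgeR adjusted p = 0.0138), which became 0.90 with the call lost without OVCAR3 DMSO replicate 1.

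The long noncoding RNA CASC19 had 0 or 1 read per OVCAR3 DMSO library and 15 to 29 with olaparib, at least 6.75-fold, against a rise of 1.28 on the log2 scale in UWB1.289. For 110 of the 521 called genes the average was at most 10 normalized counts in one line, so the change in that line carries a large counting error. TM4SF1-AS1, LY6E, SEPTIN3 and SORCS1 had no reads in the UWB1.289 DMSO libraries and at most 7, 6, 5 and 2 with olaparib. PADI1, PECAM1, DNAH2 and IGFN1 had none in the OVCAR3 DMSO libraries and at most 5, 8, 7 and 2 with olaparib. A fitted value of such a gene depends on the prior count and is not given. TM4SF1-AS1 is an antisense gene, and without a stated strand setting its reads cannot be told apart from those of its partner. PECAM1 is also 1 of the 6 endothelial markers, which summed to 9.45 to 19.2 CPM over the 16 libraries.

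Against 3.66% of all tested genes, several lists held no called gene. They were the 84 ribosomal protein genes (median log2 difference 0.05), 13 mitochondrially encoded respiratory chain genes, 29 genes of cholesterol and fatty acid synthesis, 23 of the integrated stress and unfolded protein response, 24 HOX genes, 16 NRF2 targets, 15 keratins, 8 metallothioneins, 4 kallikrein-related peptidases and 15 genes of PARP1 and strand break repair. At that share a short list can hold none, so the shorter of these lists cannot be told apart from the rest of the genes. Of 16 YAP and TEAD targets the kinase gene NUAK2 was called (1.39, SE 0.181, edgeR adjusted p = 4.63e-06), against 2.0% of all tested genes. The cholesterol genes had lower medians with olaparib in both lines, -0.46 in UWB1.289 and -0.38 in OVCAR3, with a median difference of -0.03.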

How the data were processed

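RNA was measured in 16 libraries of 2 established cell lines, with 4 libraries in each of the 4 groups that the sample titles give. Libraries were of the QuantSeq 3' type. Single-end reads were trimmed by the authors (BBDuk), mapped to GRCh38 (hg38) with STAR 2.7.9a run in 2 passes, and assigned to the genes of GENCODE release 38 by featureCounts 2.0.0. The deposited values are raw counts of 59428 genes, without normalization. The settings for strand, multiple matches and overlapping genes are not given in the sources used here.

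Here, counts were scaled with TMM and filtered with filterByExpr, which left 14243 genes, and the interaction contrast was tested over all 16 libraries with edgeR 4.0.16 in R 4.3.3 (quasi-likelihood F test, group means only, two-sided, Benjamini-Hochberg adjustment over all tested genes). Standard errors are the log2 value divided by the square root of F. Normalized counts are the TMM-scaled counts at the mean library size. With total counts of 5599571 to 7730228, a gene near 10 counts carries a large counting error, and 3 reads per library was used as the floor. No libraries were identical. The treatment is said to have been repeated 4 times, but no source says that cultures were independent, so p-values measure the spread between these libraries.

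Members and gene lists were chosen with earlier results of these data known. Genes were named by a rule that left out clone-based names: the 8 largest differences in each direction with an average above 10 in each line and the libraries of at least 1 line not overlapping, up to 8 genes of opposite direction, 4 in each direction with an average of at most 10 in one line, up to 4 called members of each list and direction, and a fixed set (BRCA1, PARP1, CGAS, STING1, IFNB1, CDKN1A, EGR1 and CXCL8). Role groups given whole, ZBP1, list members below the fold threshold and the promoters were chosen after their values were seen. Alternatives were DESeq2 1.42.0, its size factors, other filters and thresholds, a replicate block and leaving out each library. On simulated data edgeR recovered 90 of 100 genes with a log2 difference of 1.5 and 97 of 100 with 2.5, with 3 false calls among 14243. Promoters are from RefSeq (GRCh38.p14), matched by symbol, and gene positions from GENCODE release 44 on the same build. Of the 521 called genes 488 had a position. Results for some genes are not reported here.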

Additional observations from a re-analysis of the deposited data

Results flagged for a closer look

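The interaction contrast called 521 genes whose response to olaparib differed between the lines, and 63 of them changed in opposite directions.

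Among 320 groups of 4 libraries examined for the named genes, 12 held 1 library far from the other 3, and chance flags about 1 in 20. On the log2 CPM scale IFIT3 was at 3.27 in UWB1.289 DMSO replicate 2 against 2.87 to 2.92 in the others, and EPSTI1 at 7.06 in UWB1.289 olaparib replicate 4 against 6.82 to 6.86. In the OVCAR3 DMSO group PTX3 was at 1.39 in replicate 3 (others 0.71 to 0.80), TGFA at 2.26 in replicate 3 (others 2.52 to 2.57) and DHX58 at 1.30 in replicate 1 (others 1.02 to 1.04). In the UWB1.289 DMSO group ETV5 was at 6.34 in replicate 2 (others 6.52 to 6.54), SMAD7 at 0.45 in replicate 1 (others 1.21 to 1.35) and ADAM8 at 3.32 in replicate 1 (others 3.91 to 3.98). CDT1 was at 6.21 in UWB1.289 olaparib replicate 1 (others 5.78 to 5.85). OVOL1 was low in olaparib replicate 4 of both lines, at 3.20 in UWB1.289 (others 3.72 to 3.81) and 2.66 in OVCAR3 (others 3.07 to 3.13). The widest gap was that of PLAU in OVCAR3 olaparib replicate 4, at 3.72 against 6.30 to 6.45.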

How the results depend on the processing

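The count of 521 called genes (285 higher in UWB1.289, 236 higher in OVCAR3, 63 opposite) became 507 with DESeq2 (490 of the 521 shared), 518 with DESeq2's size factors and 502 without the low-count filter, where the balance turned to 249 and 253. It fell to 297 (155 and 142) with an average above 50 and rose to 1521 (696 and 825, with 121 opposite) without the fold threshold, so the larger direction depends on that threshold. An adjusted p below 0.05 left 38 opposite genes. Leaving out 1 library gave 451 to 530 called genes. A replicate block shared by both lines gave 529, and a replicate block within each line 537. After removal of the group means, same-numbered DMSO and olaparib libraries correlated across 9542 genes at 0.137 to 0.225 in UWB1.289, above 0.1 in all 4 pairs, and at 0.0324 to 0.167 in OVCAR3, where 2 of 4 pairs were below 0.1. Same-numbered libraries of different lines correlated at -0.198 to 0.220. Since that range reaches as high, these values cannot decide whether the numbers pair the libraries in either line. Neither block changed the call of a named gene. The log2 difference of CGAS ranged from -2.17 (without OVCAR3 DMSO replicate 2, where it reversed) to 1.12 when single libraries were left out. The scaling moved the median of all genes by less than 0.1 on the log2 scale. Of the calls of named genes, PLAU, SERPINA1 and VTCN1 were lost with DESeq2, and 17 genes, SERPINA1 and VTCN1 among them, lost theirs without at least 1 single library. Of these DNAH2 lost it without any of 7 libraries, IGFN1 without any of 11 and SORCS1 without any of 2. Depth limits genes near or below 10 counts, and a fold against a group at 0 is a bound.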
